A study of Mus musculus with 22 samples.

Results

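A set of 10 genes of mouse spermatogonia, the dividing precursor cells of sperm, was followed in a chromatin immunoprecipitation and sequencing (ChIP-seq) series of whole testis. They are Gfra1, Zbtb16, Sall4, Id4, Nanos2, Nanos3 and Uchl1, used as genes of stem and undifferentiated spermatogonia, and Kit, Dazl and Stra8, used as genes of differentiation and entry to meiosis. The deposited values are read counts in windows of 50 kb along the mm10 genome. Every window overlapping 1 of the 10 genes by its RefSeq position (GRCm38.p6, the assembly of mm10) was taken, which gave 21 of 54520 windows. All 10 genes were found among 21887 protein-coding genes. The count per gene was 6 windows for Gfra1, 4 for Zbtb16, 3 for Kit, 2 for Sall4 and 1 for each of the other 6, so windows of the same gene are neighbours and not independent.

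Spermatogonial stem cells renew themselves under the ligand GDNF, which signals through the receptor encoded by Gfra1, and hold back differentiation through transcription factors such as Zbtb16, Sall4 and Id4 and RNA-binding proteins such as Nanos2. Retinoic acid moves them toward differentiation, when the receptor Kit is gained, and later into meiosis, when Stra8 is induced. γH2AX is histone H2AX phosphorylated near DNA breaks and on chromosomes that remain unpaired in meiosis. Histone H3.3 is a variant laid down outside DNA replication, at active genes among other places. Spermatogonia are a minority of the cells of a testis that holds meiotic cells and spermatids.

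The study asks, by its title, how Robertsonian translocations, fusions of a pair of chromosomes at the centromere, alter where γH2AX and H3.3 lie in germ cells, and all carriers were heterozygous. For γH2AX, testes of 4 weeks and a Millipore antibody (clone JBW301) were used in 3 libraries each of 3Rb, 1Rb_M and 1Rb_P. The 3Rb mice, F1 animals of B6.SPRET7MOLF12 crossed with RBF/Dnj, carry 3 translocations. The 1Rb_M mice, F1 animals whose parents are of CBy.RBF-Rb(8.12)5Bnr/J and B6.SPRET7MOLF12, carry 1, which joins chromosomes 8 and 12. The 1Rb_P mice, F1 animals whose parents are of C57BL/6J and CBy.RBF-Rb(8.12)5Bnr/J, carry the same one. C57BL/6J mice (B6), with no translocation, gave 1 library at 4 weeks, whose antibody of the same clone is labelled Upstate. For H3.3, testes of 6 weeks and a Millipore antibody to H3.3 were used in 3 libraries each of 3Rb, of 1Rb (the strain of 1Rb_M) and of the control B6.SPRET7MOLF12 (Cg). By their titles the 3 inputs came from 1Rb_M and B6 at 4 weeks and from Cg at 6 weeks. For the input titled 1Rb_M, however, the strain given is that of 1Rb_P. The Cg input thus differs from the other inputs in age as well as strain, and the pooled input mixes both ages. The crosses differ in parental strain as well as in translocations, so the effects of strain and of translocation cannot be told apart, and no γH2AX library of Cg is among the samples. The labels number the replicates but do not tie each to an animal of its own; the p-values therefore cover only the spread between these samples, which may be technical. That the 3 translocations of RBF/Dnj join 1 with 3, 8 with 12 and 9 with 14 is background knowledge, and the labels name only 8 with 12.

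Library totals ran from 21535147 to 56385465 counts for γH2AX, 41278440 to 128348440 for H3.3 and 11876426 to 51651953 for the inputs. The windows of the 10 genes held 200 to 4931 counts each. Counting error at their median window was 3.52 to 5.95% for γH2AX, 1.85 to 3.36% for H3.3 and 3.22 to 6.67% for the inputs. Replicates 1 and 2 of γH2AX 1Rb_M had 12.3% of their counts on X, against 18.9% in replicate 3 of that group and 17.7 to 20.6% in the 7 other γH2AX libraries. Window counts were also compared between replicates over the genome, X included, by chi-square per degree of freedom. In 1Rb_M it was 28.1 and 34.6 for replicate 3 against replicates 1 and 2. Every other γH2AX pair within a group was at 1.87 to 2.76, so the libraries of 1Rb_M disagree more than those of 3Rb or 1Rb_P. For H3.3, replicate 1 of Cg was at 7.57 and 5.48 against replicates 2 and 3. Replicate 1 of 1Rb was at 5.61 and 5.85 against replicates 2 and 3 of 1Rb, and the other H3.3 pairs were at 1.38 to 2.43. The 3 inputs gave like values at the 21 windows: their log2 ratios between strains lay inside the central 95% of windows with genes, except window 6 of Gfra1, which holds its start, at -0.39 for 1Rb_M over B6 and -0.32 for Cg over B6. Since the samples are whole testis, a change in the share of a cell type and a change of the mark per cell cannot be told apart in any value that follows.

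The positions, all on mm10, place the genes on 9 chromosomes, and 2 of the genes lie on chromosomes joined in 3Rb: Nanos3 on 8 (84173733 to 84176552) and Zbtb16 on 9 (48651797 to 48836225). Chromosome 8 is joined in the 1Rb crosses as well, so only Zbtb16 lies on a chromosome joined in 3Rb alone. Sall4 lies on 2 (168748332 to 168767201), Uchl1 on 5 (66676121 to 66687234), Kit on 5 (75574987 to 75656722), Stra8 on 6 (34920163 to 34939344) and Nanos2 on 7 (18987524 to 18988962). Id4 lies on 13 (48261116 to 48266028), Dazl on 17 (50279393 to 50293620) and Gfra1 on 19 (58235581 to 58455946). Some windows hold other genes: that of Stra8 also overlaps Wdr91 and Slc23a4, that of Nanos2 overlaps Nova2 and Mypop, and that of Nanos3 overlaps 4930432K21Rik. Numbering windows by coordinate within a gene, window 1 of Sall4 also holds Atp9a, window 1 of Zbtb16 holds Gm32280 and window 2 of Gfra1 holds Gm46650. At 50 kb a signal cannot be assigned to a promoter, a gene body or a neighbour.

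The promoters of 8 of the 10 genes were in the RefSeq table (GRCm38.p6, 250 bases before to 50 after the start). Those of the 3 genes with the highest H3.3 and of Stra8, the gene with the highest γH2AX, are printed to show what start sites these windows hold, with each CpG in capitals. The start that the table gives for Stra8 lies inside the gene's span and not at its first base.
Nanos3, chr8:84176503-84176802, minus strand: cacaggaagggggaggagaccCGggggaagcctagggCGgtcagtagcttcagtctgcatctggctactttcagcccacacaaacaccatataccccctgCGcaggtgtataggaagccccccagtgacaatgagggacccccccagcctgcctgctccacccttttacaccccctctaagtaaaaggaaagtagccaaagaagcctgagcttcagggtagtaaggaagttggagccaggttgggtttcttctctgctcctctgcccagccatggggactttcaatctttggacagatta
Nanos2, chr7:18987274-18987573, plus strand: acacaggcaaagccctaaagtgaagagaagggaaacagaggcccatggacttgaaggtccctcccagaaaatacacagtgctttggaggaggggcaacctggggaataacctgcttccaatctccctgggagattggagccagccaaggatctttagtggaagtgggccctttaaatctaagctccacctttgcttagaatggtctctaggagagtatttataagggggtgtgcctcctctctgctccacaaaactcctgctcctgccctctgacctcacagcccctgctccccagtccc
Dazl, chr17:50293571-50293870, minus strand: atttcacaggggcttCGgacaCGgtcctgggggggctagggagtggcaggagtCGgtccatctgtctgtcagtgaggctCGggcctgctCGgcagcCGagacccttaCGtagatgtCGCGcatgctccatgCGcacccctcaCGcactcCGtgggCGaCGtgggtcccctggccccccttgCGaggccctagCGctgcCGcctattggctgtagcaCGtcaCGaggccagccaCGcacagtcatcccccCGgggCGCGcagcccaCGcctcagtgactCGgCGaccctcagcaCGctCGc
Stra8, chr6:34920698-34920997, plus strand: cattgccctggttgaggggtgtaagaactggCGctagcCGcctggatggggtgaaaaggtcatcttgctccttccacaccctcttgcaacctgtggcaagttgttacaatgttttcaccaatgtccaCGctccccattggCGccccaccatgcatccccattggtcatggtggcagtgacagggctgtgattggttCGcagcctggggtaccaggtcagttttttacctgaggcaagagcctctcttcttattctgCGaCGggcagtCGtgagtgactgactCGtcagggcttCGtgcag
The CpG count was 3 for Nanos3, 0 for Nanos2, 28 for Dazl and 10 for Stra8, where the median over 27025 promoters was 7. Among the other promoters it was 39 for Id4, 20 for Kit, 12 for Gfra1 and 9 for Uchl1. So the windows highest in H3.3 hold both a CpG-rich start (Dazl) and starts with few or none (Nanos3, Nanos2). The letters AGGTCA, the core of sites bound by retinoic acid receptors, were found on either strand in 2 of the 8 promoters, those of Stra8 and Nanos2, and in 16.0% of all promoters. The letters CACGTG, an E-box that reads the same on both strands, were in 0 of the 8 and in 7.24% of all. Such matches describe the letters only.

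Levels of γH2AX over input came first, and the question was where the 10 genes stood among windows of like gene content. The level is the log2 ratio of a window's count to that of the 3 pooled inputs, with 0.5 added to both, less the same ratio over the 13 autosomes that none of the translocations joins. Windows of like gene content are autosomal windows with the same number of protein-coding genes, leaving out the 21: 19834 with 1 gene, 5390 with 2 and 1717 with 3. Over all 21 windows the median level less that of like windows was -0.13 ± 0.01 in 3Rb, -0.02 ± 0.05 in 1Rb_M and -0.11 ± 0.04 in 1Rb_P (SD, n = 3 each), and -0.07 in the 1 library of B6. The spermatogonial windows thus lay slightly under like windows in 3Rb and 1Rb_P by more than the spread between libraries, and within that spread in 1Rb_M. That spread does not measure how like windows vary among themselves. From the 10th to the 90th percentile, like windows with 1 gene ran from -0.33 to 0.44 in 3Rb and -0.23 to 0.33 in 1Rb_P. The range was narrower in 1Rb_M, at -0.14 to 0.24. Windows under the median of like windows numbered 18 of 21 in 3Rb, 13 in 1Rb_M, 17 in 1Rb_P and 16 in B6.

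Stra8, the retinoic acid target that starts the meiotic programme, had the highest γH2AX of the 10 in every group. Its level was 0.38, 0.49 and 0.33 in 3Rb, 0.27, 0.12 and 0.58 in 1Rb_M, 0.48, 0.57 and 0.42 in 1Rb_P, and 0.46 in B6. The groups overlapped, and the widest spread was in 1Rb_M, where the library with the larger share on X (replicate 3) was the high one; the part of that share in the spread was not tested. The mean put the Stra8 window above 94.9% of like windows in 3Rb, 97.4% in 1Rb_M, 98.4% in 1Rb_P and 98.3% in B6. It also lay above 17 of 20 flanking windows (500 kb on each side) in 3Rb and above 19 of 20 in each of 1Rb_M, 1Rb_P and B6. The flanks were themselves above input, with a median of 0.19 in 3Rb, 0.17 in 1Rb_M, 0.20 in 1Rb_P and 0.21 in B6.

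Sall4, a zinc finger protein of undifferentiated spermatogonia, was at the low end. The mean of its 2 windows was -0.36, -0.38 and -0.39 in 3Rb, -0.12, -0.18 and 0.00 in 1Rb_M, -0.20, -0.24 and -0.36 in 1Rb_P, and -0.40 in B6. The 3Rb libraries and B6 were among the lowest of these, below all 3 of 1Rb_M and close to the lowest of 1Rb_P. The window that holds Sall4 alone (168750001 to 168800000) had a mean above 6.37% of like windows in 3Rb, 14.4% in 1Rb_M, 3.43% in 1Rb_P and 0.555% in B6.

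Nanos2, an RNA-binding protein that keeps stem spermatogonia undifferentiated, differed most between groups. Its level was -0.47, -0.40 and -0.44 in 3Rb, -0.0049, -0.23 and -0.09 in 1Rb_M, -0.04, -0.09 and -0.30 in 1Rb_P, and -0.0004 in B6. All 3 libraries of 3Rb lay below each of the 7 others. Nanos3, its relative in undifferentiated spermatogonia, was at -0.09, -0.09 and -0.09 in 3Rb, 0.01, -0.10 and 0.28 in 1Rb_M, 0.20, 0.13 and 0.03 in 1Rb_P, and 0.06 in B6. There the 3Rb libraries lay below all of 1Rb_P and overlapped 1Rb_M.

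The other 6 genes lay between these extremes. Id4, an inhibitor of DNA-binding proteins that marks stem cells, was at -0.20, -0.32 and -0.20 in 3Rb, -0.09, -0.06 and -0.04 in 1Rb_M, -0.08, -0.09 and -0.14 in 1Rb_P, and -0.22 in B6, so 3Rb lay below both 1Rb crosses and around B6. Zbtb16, the transcription factor PLZF, averaged -0.18 ± 0.03 in 3Rb, -0.04 ± 0.12 in 1Rb_M, -0.15 ± 0.05 in 1Rb_P (SD, n = 3 each) and -0.14 in B6 over 4 windows. Gfra1 averaged -0.10 ± 0.03 in 3Rb, 0.03 ± 0.05 in 1Rb_M, -0.07 ± 0.03 in 1Rb_P and -0.05 in B6 over 6 windows. Both genes were within their summed spreads between 3Rb and 1Rb_P. Uchl1, a deubiquitinating enzyme of undifferentiated spermatogonia, was at -0.01 ± 0.03 in 3Rb, 0.11 ± 0.06 in 1Rb_M, 0.04 ± 0.07 in 1Rb_P and 0.26 in B6. Dazl, an RNA-binding protein that germ cells need to respond to retinoic acid, was at -0.07 ± 0.07 in 3Rb, -0.10 ± 0.08 in 1Rb_M, -0.14 ± 0.03 in 1Rb_P and -0.10 in B6, and its groups overlapped. Kit, the receptor gained at differentiation, was one of 2 genes with a mean above 0 in all 3 carrier groups, the other being Stra8: 0.08 ± 0.04 in 3Rb, 0.08 ± 0.02 in 1Rb_M and 0.05 ± 0.02 in 1Rb_P, against -0.03 in B6. The Kit signal peaked in its middle window (75600001 to 75650000), at 0.23 in 3Rb, 0.15 in 1Rb_M, 0.15 in 1Rb_P and 0.16 in B6.

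**Figure D1:**
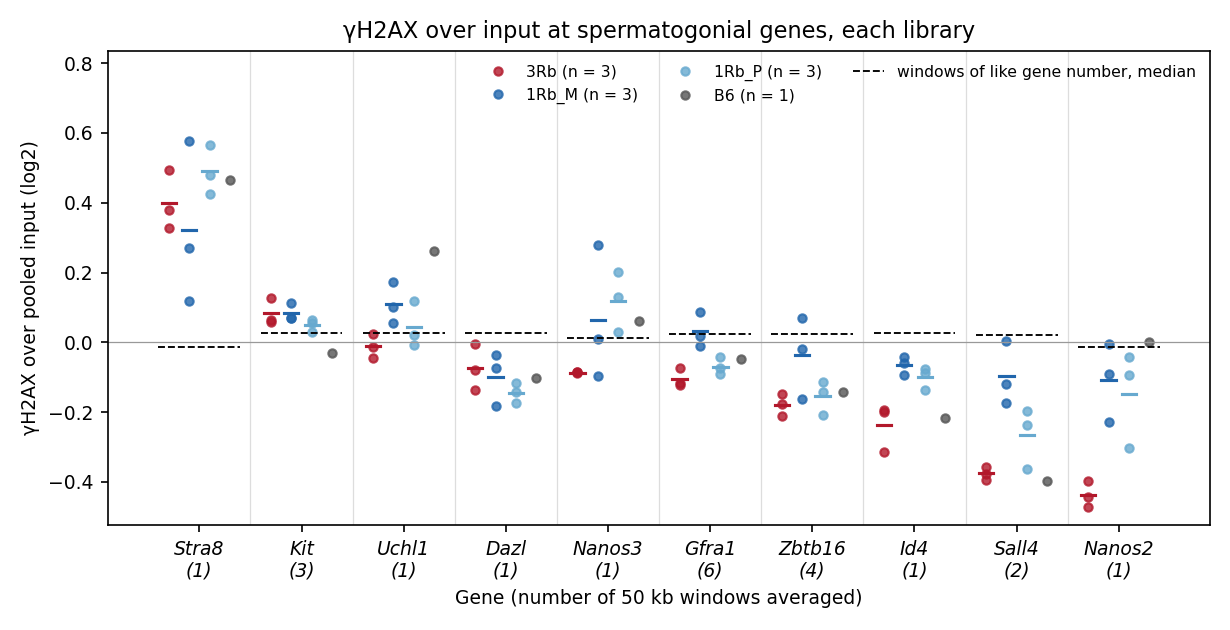
γH2AX over pooled input (log2, y axis) for each gene (x axis, with its number of windows), in the order of the 3Rb means. Points are libraries of 3Rb, 1Rb_M, 1Rb_P and B6, short bars are group means, and the dashed line is the median of windows of like gene number, averaged over groups. Stra8 stands at the top in all groups (0.12 to 0.58), and the 3 points of 3Rb at Nanos2 (-0.47 to -0.40) lie below all other points there.

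The order of the genes was clearer in some groups than in others. In 3Rb the neighbours in the order that differed by more than their summed SDs were Stra8 over Kit, Kit over Uchl1, Gfra1 over Zbtb16, Id4 over Sall4 and Sall4 over Nanos2. In 1Rb_P they were Stra8 over Nanos3 and Uchl1 over Gfra1. In 1Rb_M no neighbours differed beyond their spread. In B6, with 1 library, the order ran from Stra8 (0.46) and Uchl1 (0.26) to Sall4 (-0.40).

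Set against B6, 16 of the 21 windows lay within the range of the 9 carrier libraries. Uchl1 and Nanos2 lay above all 9 in B6, and 3 windows lay below: 1 each of Sall4, Kit and Gfra1. The carriers reached from -0.05 to 0.17 at Uchl1, against 0.26 in B6, and from -0.47 to -0.0049 at Nanos2, against -0.0004 in B6. Of like windows with 1 gene, B6 was above the carriers in 13.4% and below in 20.1%, so 2 above and 3 below of 21 (9.52% and 14.3%) are not more than that. B6 has 1 library and another antibody label, so no test was made.

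The second question was whether γH2AX at these genes differed between 3Rb and each 1Rb cross. Window counts of the 9 libraries were fitted with edgeR's quasi-likelihood test, adjusted by Benjamini-Hochberg over all 53118 windows tested, and a window with an adjusted p under 0.05 was called. All 21 windows passed the filter on low counts. Against 1Rb_M, 11 of the 21 windows were called lower in 3Rb and 0 higher (52.4% lower), where 20.2% of all windows were called lower and 17.9% higher. Of like windows, weighted as the 21 are by gene number, 25.9% were called lower. The 11 windows belong to 7 genes: Gfra1, Zbtb16, Sall4, Id4, Nanos2, Nanos3 and Uchl1. Kit, Dazl and Stra8, the genes of differentiation and meiotic entry, had none, and a difference between the 2 sets of genes was not tested.

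Nanos2 fell the furthest. As CPM (counts brought to one library size with edgeR's TMM factors), its window held 11.3, 11.9 and 11.6 in 3Rb, against 16.0, 13.7 and 14.6 in 1Rb_M, with no overlap. The log2 difference was -0.35 ± 0.07 (SE; edgeR adjusted p = 0.000143). Sall4 fell in both windows. The first held 12.1, 11.7 and 12.3 CPM in 3Rb against 14.5, 13.9 and 15.8 in 1Rb_M (log2 -0.29 ± 0.06, SE; edgeR adjusted p = 0.000519). The second held 11.6, 11.6 and 10.8 CPM in 3Rb against 14.2, 13.6 and 14.3 in 1Rb_M (log2 -0.31 ± 0.07, SE; edgeR adjusted p = 0.000449). The groups did not overlap in either.

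Among the long genes, part of each was called. Zbtb16 fell in window 2 (48700001 to 48750000), with 12.9, 12.95 and 11.9 CPM in 3Rb against 15.7, 14.5 and 15.5 in 1Rb_M, a log2 difference of -0.28 ± 0.06 (SE; edgeR adjusted p = 0.000355). Window 4 fell by 0.19 on the log2 scale (edgeR adjusted p = 0.0134), and windows 1 and 3, at -0.10 and -0.07, were not called. Gfra1 fell in the 3 windows at its 3' end, by 0.25, 0.24 and 0.14 on the log2 scale (edgeR adjusted p = 0.000783, 0.000816 and 0.0430). The 3 windows toward its start were at -0.11, -0.10 and -0.09 and were not called. Both genes thus showed lower values in 3Rb in every window, and the called ones differed by at most 0.28 on the log2 scale.

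The genes in 1 window followed. Id4 held 12.4, 11.4 and 12.5 CPM in 3Rb, against 13.7, 14.03 and 13.7 in 1Rb_M, a log2 difference of -0.19 ± 0.06 (SE; edgeR adjusted p = 0.0150). Nanos3 held 15.3, 15.2 and 15.3 CPM in 3Rb, against 16.7, 15.5 and 19.4 in 1Rb_M, with a log2 difference of -0.18 ± 0.07 (SE; edgeR adjusted p = 0.0412). Uchl1 held 14.7, 14.2 and 13.99 CPM in 3Rb, against 15.9, 15.4 and 16.0 in 1Rb_M, a log2 difference of -0.14 ± 0.05 (SE; edgeR adjusted p = 0.0411). None of these overlapped between the groups in CPM, and the p-values of Nanos3 and Uchl1 stood close to the threshold. In all, 13 of 21 windows had each 3Rb library below each 1Rb_M library, where 24.0% of all windows did, and 0 had each above, where 22.0% did.

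**Figure D2:**
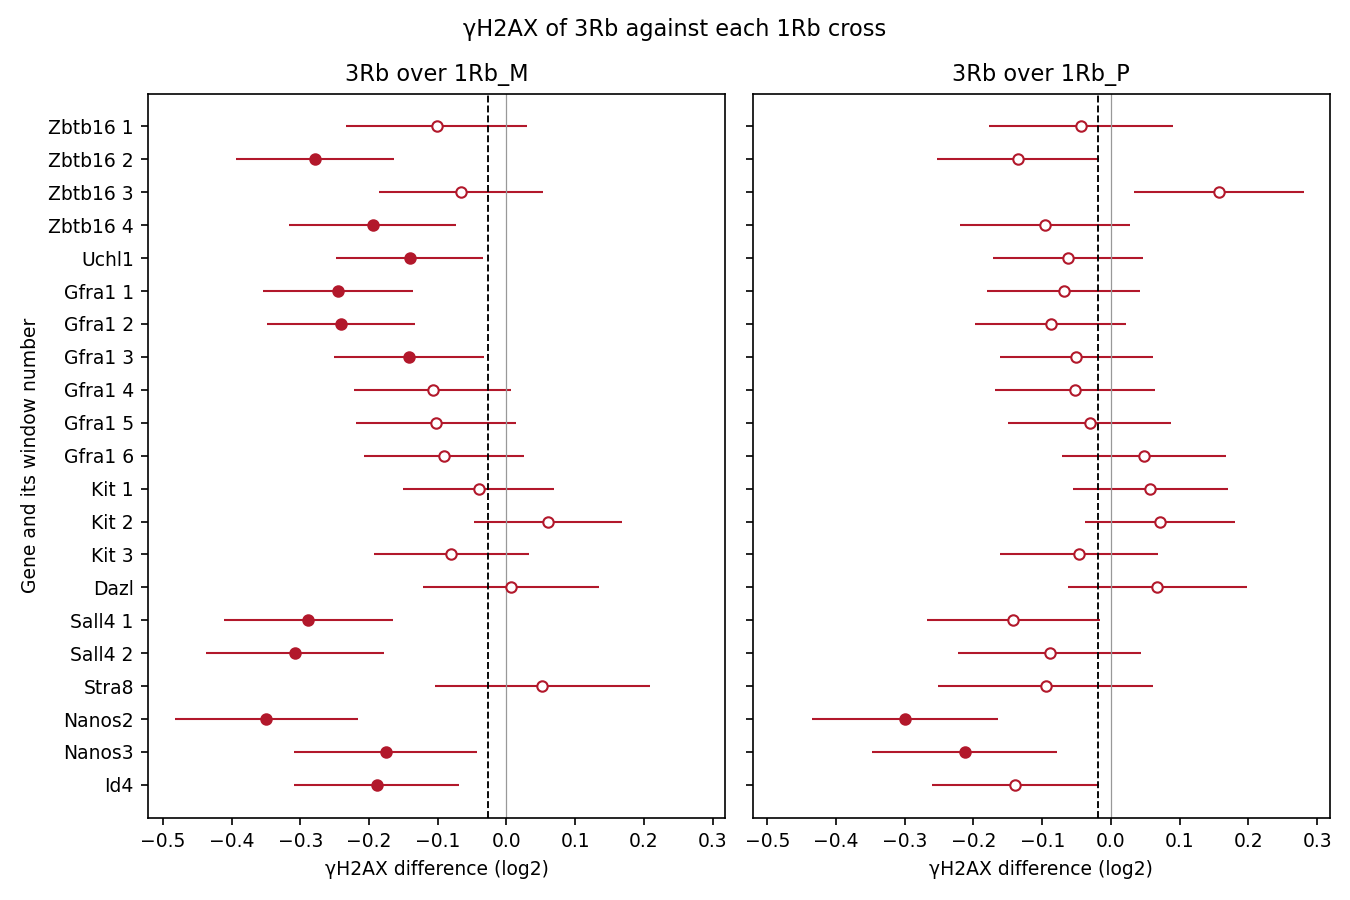
Log2 difference in γH2AX (x axis) of 3Rb over 1Rb_M (left) and of 3Rb over 1Rb_P (right) for each of the 21 windows (y axis, numbered along the chromosome within a gene). Bars are 95% intervals, filled points are windows called by edgeR, and the dashed line is the median of like windows (-0.03 on the left, -0.02 on the right). On the left 11 points are filled, all below 0, and on the right 2, Nanos2 and Nanos3.

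The genes without a call had small differences. Stra8 held 18.8, 20.2 and 18.1 CPM in 3Rb against 17.8, 16.0 and 21.2 in 1Rb_M, overlapping, at log2 0.05 ± 0.08 (SE; edgeR adjusted p = 0.632). Dazl was at 0.01 ± 0.07 (SE; edgeR adjusted p = 0.949), and the 3 windows of Kit were at -0.04, 0.06 and -0.08. Without replicate 3 of 1Rb_M, the one with the larger share on X, Stra8 passed as higher in 3Rb (log2 0.17, edgeR adjusted p = 0.0190) and the count was 10 windows, 9 of them lower. The count was 7 without replicate 1 of 1Rb_M, replicate 2 of 3Rb or replicate 3 of 3Rb, and 6 with DESeq2. Called as lower in each of 15 other settings were both windows of Sall4, Nanos2, window 2 of Zbtb16 and windows 1 and 2 of Gfra1, while Nanos3 was lost in 9 of the 15, Uchl1 in 8 and window 3 of Gfra1 in 8. The median difference of the 21 windows was -0.14, beside 0.01 over all windows tested and -0.03 over like windows. With library totals in place of TMM scaling, 78.3% of all calls were lower in 3Rb in place of 53.0%, the median of all windows moved to -0.09, and 15 of the 21 windows were called, all lower.

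Against 1Rb_P, using the same 3Rb libraries, 2 of 21 windows were called lower and 0 higher (9.52% lower), where 12.8% of all windows were called lower, 10.1% higher, and 16.0% of like windows lower. The 2 were Nanos2 and Nanos3. Nanos2 held 11.3, 11.9 and 11.6 CPM in 3Rb, against 15.2, 14.8 and 12.8 in 1Rb_P, a log2 difference of -0.30 ± 0.07 (SE; edgeR adjusted p = 0.00157). Nanos3 held 15.3, 15.2 and 15.3 CPM in 3Rb, against 18.6, 17.8 and 16.7 in 1Rb_P, a log2 difference of -0.21 ± 0.07 (SE; edgeR adjusted p = 0.0226). Neither overlapped between groups, and all 3Rb libraries lay below all 1Rb_P libraries in 6 of 21 windows, against 23.9% of all windows. All lay above in 1 window, number 3 of Zbtb16 (log2 0.16, edgeR adjusted p = 0.0699), where 22.3% of all windows did so. The median of the 21 was -0.06, beside 0.0026 over all windows.

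The call on Nanos2 against 1Rb_P held in each of 15 other settings, and that on Nanos3 was lost with DESeq2 (1 window called) and on leaving out replicate 1 or 2 of 1Rb_P or any 1 of the 3Rb libraries. Without replicate 3 of 1Rb_M, which enters only the estimate of the spread here, 5 windows were called: window 1 of Sall4 and Id4 came in as lower and window 3 of Zbtb16 as higher. The windows of Sall4 stood at -0.14 ± 0.06 and -0.09 ± 0.07, Id4 at -0.14 ± 0.06 and window 2 of Zbtb16 at -0.14 ± 0.06 (SE), and none of these was called.

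The 2 crosses with 1 translocation were also set against each other. Of the 21 windows, 0 were called by edgeR between 1Rb_M and 1Rb_P, where 1.36% of all windows were, with 7 of 21 at an unadjusted p under 0.05 and 0 called by DESeq2. The median difference was 0.08, and 19 of 21 windows were higher in 1Rb_M, beside a median of 0.0006 over all windows and 0.02 over like windows. All 1Rb_M libraries lay above all 1Rb_P libraries in 8 windows, where 10.7% of all windows did so, and below in 0, where 8.17% did. The largest difference was in window 3 of Zbtb16, with 15.0, 13.4 and 15.2 CPM in 1Rb_M against 12.3, 12.96 and 11.96 in 1Rb_P (log2 0.22 ± 0.06, SE; edgeR adjusted p = 0.0612). Leaving out replicate 2 or replicate 3 of 1Rb_M each gave 5 calls, 5 higher without replicate 2, and 4 higher with Stra8 lower without replicate 3. Of the calls between these crosses over all windows, 78.0% were lower in 1Rb_M, against 30.8% with library totals, which moved the median of all windows to 0.08 and called 1 of the 21, and 95.9% with DESeq2. The larger number of calls against 1Rb_M than against 1Rb_P was not matched by a called difference between the 1Rb crosses with all libraries in. An absence of calls does not show that the 2 crosses are alike at these windows, most of which were higher in 1Rb_M.

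The surroundings of the genes moved too. Of the 20 windows flanking Nanos3, 19 were called lower in 3Rb than in 1Rb_M (median -0.34), beside -0.18 at Nanos3 itself, and Nanos3 lay above all 20 flanks in its level in 3Rb. Around Uchl1 16 of 20 were called lower (median -0.22), around Nanos2 15 (median -0.28) and around Sall4 13 (median -0.31). At these 4 genes most windows within 500 kb on either side were lower in 3Rb too. Around Dazl 11 of 20 flanks were called lower (median -0.21), while Dazl itself was at 0.01. Around Zbtb16, on chromosome 9, 4 flanks were called higher and 1 lower (median 0.03), while the gene averaged -0.16, lower than 19 of its 20 flanks. In level, too, the Zbtb16 windows of 3Rb averaged below all 20 flanks, where they exceeded 10 of 20 in 1Rb_M and 9 in 1Rb_P. They lay 0.14 ± 0.04 (SD, n = 3) below the median of the flanks in 3Rb. In 1Rb_M they lay 0.01 ± 0.09 above that median, and in 1Rb_P 0.01 ± 0.06 below it. Against 1Rb_P, 17 of the 20 flanks of Nanos3 were called lower in 3Rb (median -0.29), beside -0.21 at Nanos3 itself. Of the 20 flanks of Nanos2, 12 were called lower (median -0.24), beside -0.30 at Nanos2, so both calls lie in wider stretches that were lower. No test was made of a gene against its flanks.

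H3.3 gave another order. Over all 21 windows the median level less that of like windows was 0.12 ± 0.01 in 3Rb, 0.19 ± 0.04 in 1Rb and 0.14 ± 0.03 in Cg (SD, n = 3 each). The median of the spermatogonial windows thus lay above like windows in all 3 groups by more than the spread between libraries. Like windows vary more: from the 10th to the 90th percentile, those with 1 gene ran from -0.40 to 0.44 in 3Rb, -0.47 to 0.48 in 1Rb and -0.47 to 0.49 in Cg. Gfra1 was not above like windows, at -0.02 in 3Rb, -0.03 in 1Rb and -0.01 in Cg. Windows above the median of like windows numbered 16 of 21 in 3Rb, 15 in 1Rb and 16 in Cg. The groups lay close together, and the genes far apart.

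Nanos3 had the highest H3.3 of the 10 genes. Its level was 0.85, 0.75 and 0.84 in 3Rb, 0.76, 0.91 and 1.00 in 1Rb, and 0.91, 0.90 and 0.93 in Cg, with 3Rb below Cg and 1Rb across both. The mean was 1.75-fold over input in 3Rb, 1.85-fold in 1Rb and 1.88-fold in Cg, above 96.7, 96.8 and 97.4% of windows with 2 genes in those groups. Nanos2 came next, at 0.68, 0.68 and 0.68 in 3Rb, 0.69, 0.72 and 0.81 in 1Rb, and 0.82, 0.60 and 0.70 in Cg. With 3 genes in its window its percentile was lower, at 79.1 in 3Rb, 78.5 in 1Rb and 76.0 in Cg.

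Dazl, alone in its window, was at 0.59, 0.54 and 0.53 in 3Rb, 0.54, 0.53 and 0.67 in 1Rb, and 0.64, 0.61 and 0.69 in Cg. That placed it above 94.7% of windows with 1 gene in 3Rb, 93.9% in 1Rb and 95.6% in Cg. It was also a local peak: the Dazl window exceeded all 20 of its flanks in each group, by 0.48 ± 0.03 over their median in 3Rb, 0.50 ± 0.09 in 1Rb and 0.55 ± 0.04 in Cg (SD, n = 3 each). Nanos3 exceeded 16 of 20 flanks in 3Rb, 16 in 1Rb and 18 in Cg, and Uchl1 18, 18 and 19. Nanos2 exceeded only 12 in 3Rb, 12 in 1Rb and 11 in Cg, its flanks having medians of 0.61, 0.68 and 0.66, so its level was that of a wider stretch.

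Stra8, highest in γH2AX, was ordinary in H3.3 for a window with 3 genes. Its level was 0.50, 0.51 and 0.46 in 3Rb, 0.48, 0.46 and 0.60 in 1Rb, and 0.57, 0.36 and 0.44 in Cg, overlapping, at percentiles of 53.1, 48.6 and 43.0 among like windows. Id4 averaged 0.35 ± 0.04 in 3Rb, 0.41 ± 0.04 in 1Rb and 0.33 ± 0.02 in Cg, at percentiles of 84.5, 86.2 and 80.8. Sall4 averaged 0.34 ± 0.03 in 3Rb, 0.40 ± 0.05 in 1Rb and 0.33 ± 0.08 in Cg, and Uchl1 0.25 ± 0.06 in 3Rb, 0.32 ± 0.07 in 1Rb and 0.41 ± 0.05 in Cg (SD, n = 3 each). These genes lay above input in every library. Zbtb16 averaged 0.17 ± 0.03 in 3Rb, 0.25 ± 0.09 in 1Rb and 0.22 ± 0.10 in Cg.

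The receptors were the lowest in H3.3. Kit averaged 0.05 ± 0.04 in 3Rb, 0.06 ± 0.02 in 1Rb and 0.08 ± 0.03 in Cg, and Gfra1 lay at input, from -0.02 to 0.02 in 3Rb, -0.02 to 0.02 in 1Rb and -0.00016 to 0.06 in Cg. Along Kit the level declined from the window of its start, at 0.21 in 3Rb, 0.25 in 1Rb and 0.27 in Cg, to the window of its end, at -0.12, -0.15 and -0.14. The neighbours in the order that differed by more than their summed SDs in all 3 groups were 1 pair, Zbtb16 over Kit.

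**Figure D3:**
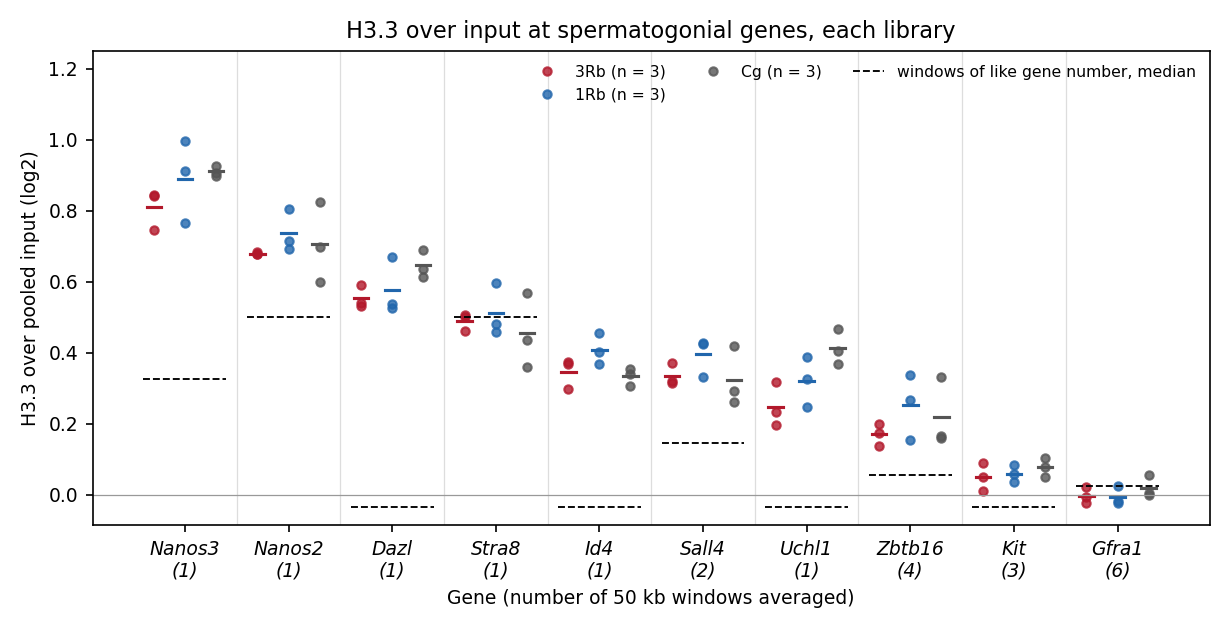
H3.3 over pooled input (log2, y axis) for each gene (x axis, with its number of windows), in the order of the 3Rb means. Points are libraries of 3Rb, 1Rb and Cg, short bars are group means, and the dashed line is the median of windows of like gene number, averaged over groups. Nanos3 (0.75 to 1.00), Nanos2 and Dazl stand highest, and Gfra1 (-0.02 to 0.06) lies at input. The 3 groups lie close together but do not overlap everywhere: at Nanos3, Dazl and Uchl1 all points of 3Rb lie below those of Cg.

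Between groups H3.3 at these genes barely differed. Against Cg, 1 of 21 windows was called lower in 3Rb and 0 higher, where 6.16% of all 53117 windows tested were called lower and 3.34% higher, and 2.16% of like windows lower. The window was Uchl1, with 21.4, 22.6 and 20.8 CPM in 3Rb against 25.1, 23.4 and 23.9 in Cg, not overlapping, and a log2 difference of -0.17 ± 0.05 (SE; edgeR adjusted p = 0.0385). Over all windows 64.8% of the calls were lower in 3Rb, and 54.2% with library totals. Uchl1 lay below all 20 of its flanks in that difference (median of the flanks -0.01). The settings that lost the call include DESeq2, library totals and leaving out replicate 1 or 3 of either group. In all, 5 windows had each 3Rb library below each Cg library, among them Nanos3 (log2 -0.09) and Dazl (log2 -0.09), neither called, where 13.2% of all windows did, and 0 had each above, where 13.4% did.

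Against 1Rb, 1 of 21 windows was called lower in 3Rb and 0 higher, where 4.02% of all windows were called lower and 2.08% higher, and 1.18% of like windows lower. It was window 2 of Zbtb16, with 21.2, 21.2 and 20.1 CPM in 3Rb against 21.3, 24.7 and 25.2 in 1Rb, a log2 difference of -0.19 ± 0.06 (SE; edgeR adjusted p = 0.0343). The groups did not overlap, but replicate 1 of 3Rb, at 21.2499 CPM, and replicate 1 of 1Rb, at 21.2514 CPM, nearly met. The settings that lost this call include DESeq2, library totals and leaving out replicate 2 or 3 of 1Rb or any 1 library of 3Rb. In all, 3 windows had each 3Rb library below each 1Rb library (9.95% of all windows) and 2, both of Gfra1, had each above (10.1%). Window 2 of Zbtb16 was also the lowest of the 4 Zbtb16 windows for γH2AX in 3Rb over 1Rb_M, measured in other libraries at another age. Between 1Rb and Cg 0 of 21 windows were called by edgeR, where 3.71% of all windows were, with 0 at an unadjusted p under 0.05 and 0 called by DESeq2. In that comparison 1 window, Id4, had each 1Rb library above each Cg library (5.73% of all windows) and 0 had each below (10.5%). Without replicate 1 of Cg, the deepest library, 1 window of Sall4 was called higher in 1Rb (log2 0.19, edgeR adjusted p = 0.0362). The medians of the 21 differences were -0.03 for 3Rb over Cg, -0.0034 for 1Rb over Cg and -0.04 for 3Rb over 1Rb, the 3 comparisons sharing libraries pairwise.

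**Figure D4:**
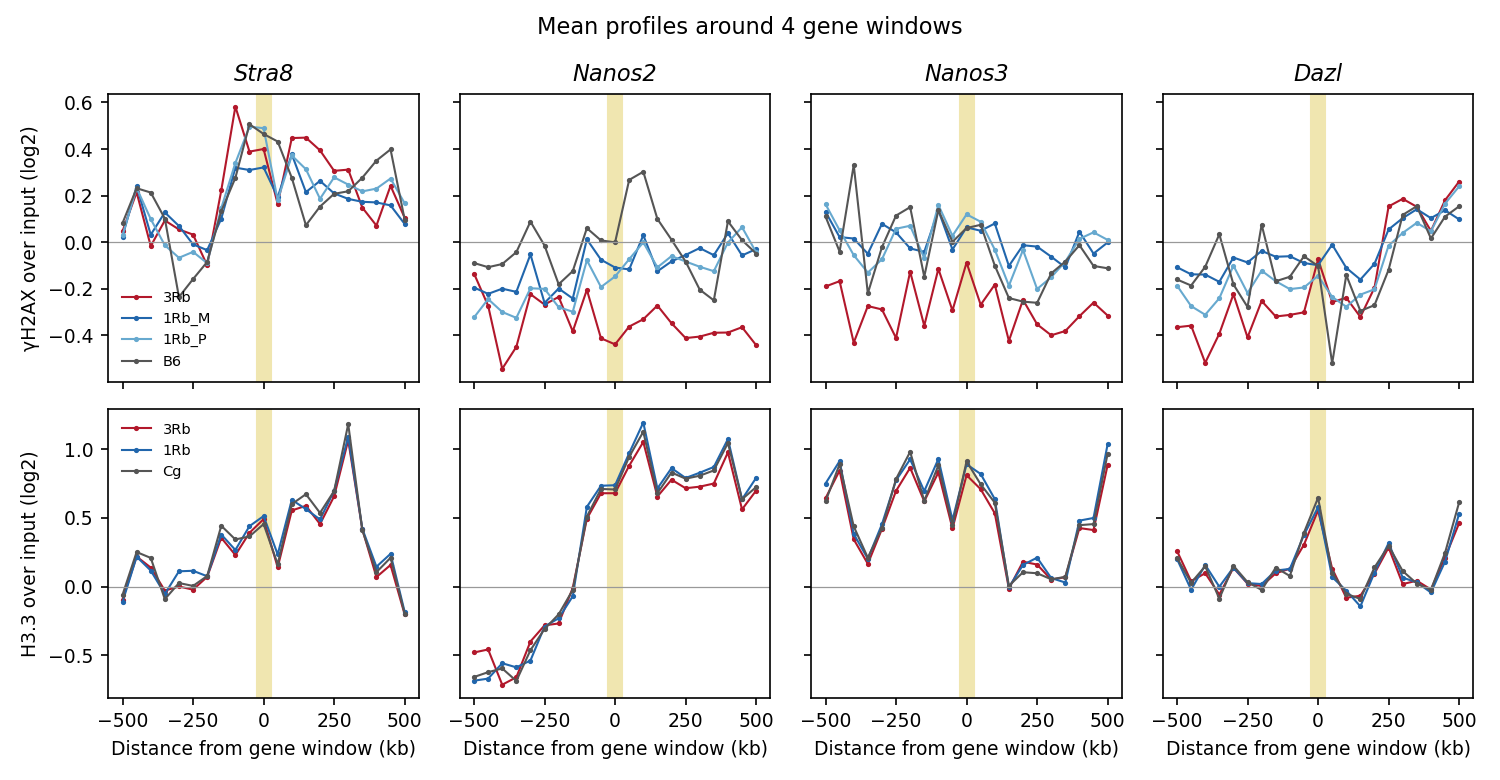
Mean γH2AX (top row) and H3.3 (bottom row) over input (log2, y axis) in the 50 kb windows around Stra8, Nanos2, Nanos3 and Dazl, against distance from the gene window (kb, x axis; the band marks that window). Lines are group means of 3 libraries (1 for γH2AX in B6). For γH2AX the 3Rb line runs below the other lines across most windows around Nanos2 and Nanos3, and for H3.3 the groups nearly coincide, with a peak at Dazl above all 20 flanks.

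Side by side, 14 of 21 windows were below input in γH2AX and above it in H3.3 in 3Rb (66.7%), against 28.2% of 27918 other autosomal windows with genes. For 1Rb_M γH2AX beside 1Rb H3.3 it was 9 of 21 (42.9%), against 20.9%. Across the 21 windows the correlation of the levels was weak in 3Rb (Pearson -0.13, Spearman -0.21) and in the 1Rb pair (Pearson -0.08, Spearman -0.21). The libraries of the marks differ in age, both levels share the same inputs, and neighbouring windows share a gene, so these values are descriptions.

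The wider pathway was read from lists of other genes, by windows. Of 38 windows of 25 other genes of self-renewal and undifferentiated spermatogonia, 19 were called lower in γH2AX in 3Rb than in 1Rb_M and 0 higher, with a median of -0.16. Over all windows 20.2% were called lower and 17.9% higher, with a median of 0.01, and 25.9% of the windows like the 21 in gene number were called lower. The 3 with the smallest adjusted p were Sall1 (log2 -0.39), Pou5f1 (log2 -0.41) and Neurog3 (log2 -0.43), transcription factors of early or undifferentiated cells. Of 38 windows of 20 genes of differentiation and meiotic entry, 14 were called lower and 3 higher, with a median of -0.09, to be set beside the same 20.2% lower and 17.9% higher of all windows. Rara, the retinoic acid receptor alpha (log2 -0.46), Stra6, a retinol transporter (log2 -0.49), and Tex101 (log2 -0.42) were lower, and Lin28b (log2 0.35), which encodes an RNA-binding protein, was higher.

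Among 27 windows of 15 niche ligands and retinoic acid enzymes, 7 were called lower and 3 higher against 1Rb_M. Of all windows 20.2% were called lower and 17.9% higher, and the count lower is near that share. Rdh10, an enzyme that makes retinaldehyde (log2 0.57), Fgf2 (log2 0.29) and Aldh1a1 (log2 0.17) were higher, and Aldh1a3, which makes retinoic acid (log2 -0.51), and the ligands Fgf8 (log2 -0.30) and Wnt6 (log2 -0.36) were lower. Of the genes named from these lists, Rdh10 and Wnt6 lie on 1, Fgf2 on 3, Sall1 on 8 and Stra6 on 9, chromosomes joined in 3Rb. Of these chromosomes, 8 is joined in the 1Rb crosses as well. Of 12 spermatid windows, 7 were called lower, 0 higher and 5 not called, beside 20.2% lower of all windows; those lower include Gapdhs (log2 -0.38), Izumo1 (log2 -0.41) and Prm1 (log2 -0.34). Of 18 housekeeping windows, 7 were called lower and 0 higher, beside 20.2% lower of all windows. Those lower include Polr2a (log2 -0.29), Rpl13a (log2 -0.28) and Ywhaz (log2 -0.28). The part of spermatid share or of any cell type in these values was not tested.

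Against 1Rb_P, with the same 3Rb libraries, the self-renewal list had 15 of 38 windows lower and 0 higher, led by Sall1 (log2 -0.33), Bcl6b (log2 -0.31) and Pou3f1 (log2 -0.30). Over all windows 12.8% were called lower and 10.1% higher in that comparison, and 16.0% of like windows lower. The differentiation list had 12 of 38 windows lower, led by Rara (log2 -0.44), Tex101 (log2 -0.36) and Meiosin (log2 -0.34), and 3 higher, led by Lin28b (log2 0.28). The niche list had 5 of 27 windows lower and 2 higher, near the shares over all windows. Of 12 spermatid windows 4 were lower and 1 higher, and of 18 housekeeping windows 7 were lower and 0 higher. Both of these lists were called lower more often than the 12.8% of all windows and than the 21 windows, of which 2 were. In H3.3 the lists had 0 or 1 window called in each comparison: Tspan33 of the self-renewal list was lower in 3Rb than in Cg (log2 -0.33) and than in 1Rb (log2 -0.20), and the housekeeping gene Pgk1 on X was lower in 1Rb than in Cg (log2 -0.19). No list was tested as a set, and these other lists were not set against windows matched to their own gene numbers.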

How the data were processed

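The deposited files hold whole-number read counts per 50 kb window of mm10 for 22 libraries (19 ChIP, 3 inputs). CASAVA 1.8 and BWA made these counts, per the submitters' processing notes; settings and the handling of duplicate reads are not given in the sources used here. Depth is given at the head of the results. Genes were placed by RefSeq positions (GRCm38.p6). Differences between groups were fitted per mark with edgeR 4.0.16 in R 4.3.3 (quasi-likelihood test, TMM scaling, a mean of at least 10 counts over the 9 libraries, Benjamini-Hochberg adjustment over all windows), and the B6 library entered no fit. Levels were log2 ratios to the 3 pooled inputs. Windows with an input under 0.2 or over 5 times the median were left out of the like windows. Alternatives were DESeq2 1.42.0, library totals, the sum over 13 autosomes, no filter, a replicate block, each library left out, each input alone and other like windows. All 10 genes are described, with up to 3 genes per other list and direction, those with the smallest adjusted p. The members and lists were chosen with earlier results of these data known. The strain given for the input titled 1Rb_M is that of 1Rb_P, and this input was used in the pool all the same.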

Additional observations from a re-analysis of the deposited data

How the results depend on the processing

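Against 1Rb_M, γH2AX was called in 11 of 21 windows, in 6 with DESeq2, 15 with library totals, 8 with the sum over 13 autosomes, 13 with replicate 3 of 1Rb_M alone (a setting chosen after seeing the data), and 7 to 12 on leaving out 1 library (12 without replicate 2 of 1Rb_M). Against 1Rb_P, 2 were called, 1 with DESeq2, 6 with replicate 3 of 1Rb_M alone, and 1 to 5 on leaving out 1 library. Between 1Rb_M and 1Rb_P, 0 were called, 1 with library totals, 4 with replicate 3 of 1Rb_M alone, and 0 to 5 on leaving out 1 library. A fit to 1 library of a group assumes that it varies like the others. For H3.3, the 1 call of 3Rb over Cg and the 1 of 3Rb over 1Rb became 0 with DESeq2 and 0 with library totals, and 0 to 1 on leaving out 1 library, as for 1Rb over Cg. No called window changed sign in any of these settings.

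Deviations of same-numbered libraries from their group means had correlations from -0.33 to 0.16 in γH2AX and -0.59 to 0.23 in H3.3. The numbers thus showed no pairing across the groups of a mark, but these values cannot exclude a shared animal or batch. With a replicate block the counts were 8 over 1Rb_M, 2 over 1Rb_P and 0 between the 1Rb crosses. For H3.3 they were 0 for 3Rb over Cg, 0 for 3Rb over 1Rb and 0 for 1Rb over Cg.

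The median γH2AX of the 21 windows less like windows in 3Rb, -0.13, was -0.11 with the 1Rb_M input alone, -0.21 with the B6 input alone and -0.11 with like windows on the 13 autosomes. In 1Rb_M, -0.02, it was -0.046 to 0.0023 on leaving out 1 library, positive without replicate 2, and -0.011 with the 1Rb_M input and -0.064 with the B6 input alone. In B6, -0.07, it was -0.113 with the B6 input alone. For H3.3 in 3Rb, 0.12, it was 0.17 with the 1Rb_M input, 0.11 with the Cg input, 0.14 with the B6 input and 0.11 on the 13 autosomes. For H3.3 in 1Rb, 0.19, it was 0.15 with the Cg input and 0.14 with windows of like gene coverage. The cause of these shifts was not tested. Window counts of 200 to 1105 in γH2AX and input limit single-library ratios to the counting errors given with the depths.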
